A study of Arabidopsis thaliana with 18 samples.

Results

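A set of genes of the light pathway that releases seed germination, 10 of the 37336 genes in the table, were followed across all 9 genotypes. They were chosen by name for their role in phytochrome signalling, with earlier results of these data known. They are the photoreceptors PHYA and PHYB, the phytochrome-interacting factors PIF1, PIF3, PIF4 and PIF5, and the PIF1 target SOMNUS (SOM). The others are HY5, HYH and HFR1, which promote light responses. Of these 10 genes, 10 had enough counts to be tested.

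Phytochromes are red and far-red light receptors that move into the nucleus in light, where they inhibit PIF proteins, a group of basic helix-loop-helix (bHLH) transcription factors, and mark most of them for degradation. In imbibed Arabidopsis seed PIF1 is the main PIF that blocks germination, in part by activating SOM, a CCCH zinc finger gene whose product lowers gibberellin and raises abscisic acid. Light also lets HY5 and HYH, a pair of related bZIP factors, and HFR1, an HLH protein that can pair with PIF1 and keep it off DNA, accumulate once the COP1 and SPA ubiquitin ligase is inhibited.

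The libraries came from germinating seed of Col-0, the wild-type accession, and of 8 homozygous lines with a T-DNA insertion in a transcription factor gene, 2 libraries per genotype and 18 in all. The lines were athb15 (SALK_140350C), athb25 (SALK_133857C), hat2 (SALK_091887C), lmi1 (SALK_131946C), obp1 (SALK_049540C), smb (SALK_143526C), vnd2 (SALK_026864C) and wrky14 (SALK_105170C), each represented by 1 insertion line in the Col-0 background. Age of seed and treatment were the same for every genotype: seed had dried for some days, was kept 48 h at 4 °C in the dark on sucrose medium, and was collected after 24 h in constant light at 22 °C (24 h SL). Each line's seed came from pools of more than 1 parent plant. It is not stated whether the duplicates were separate pools, so p-values measure only the spread between these libraries, which may be technical.

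Library totals ran from 18146206 to 33111743 counts, and replicate libraries differed by 2.02 to 8.48 times the sampling variance. The targeted gene was called lower in its own line for ATHB15, ATHB25, HAT2, LMI1 and SMB. VND2 was too low to tell (7 and 8 counts in vnd2, 11 and 13 in Col-0). OBP1 stood at 13.9 and 11.5 CPM (the count scaled to the library total) in the libraries labelled obp1 against 8.93 and 8.45 in Col-0. WRKY14 stood at 9.58 and 11.2 CPM in those labelled wrky14 against 0.287 and 0.341, so the RNA of these genes was not lowered and the libraries are called by their labels throughout. The tissue was checked with 4 endosperm genes (EPR1, MAN5, MAN7 and EXPA2) and 10 seed storage and oil body genes, none of which was at 0 in any library, the lowest being MAN5 with 88 counts. These are whole seeds, so fewer cells of a type and less RNA per cell cannot be told apart.

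The levels of the 10 genes differed far more from gene to gene than from genotype to genotype. Per kilobase of exon, SOM (median 102 CPM per kb over 18 libraries) and PHYA (95.0) were the most abundant. HYH (52.3), PIF1 (43.0), PHYB (27.4), HY5 (27.0) and PIF3 (14.0) followed. HFR1 (3.41), PIF4 (1.46) and PIF5 (0.507) were the lowest, so of the 4 PIF genes the one that acts in seed had the highest transcript level per length and PIF5 the lowest. The total exon length of each locus was used, which counts every annotated exon and so understates levels of loci with long alternative exons.

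**Figure D1:**
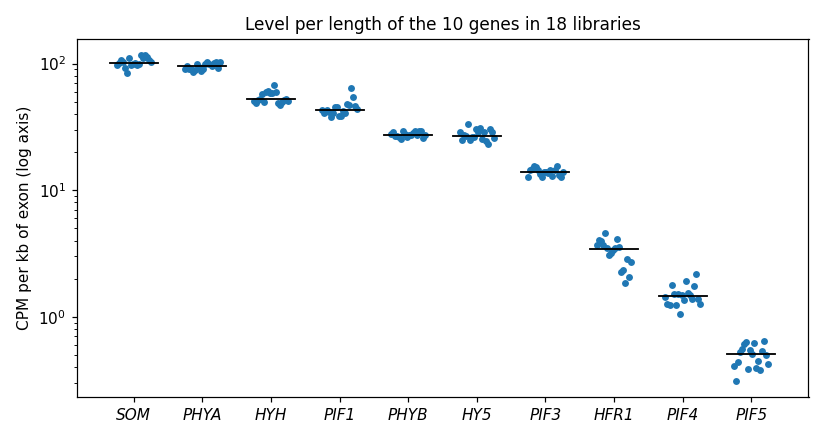
Level of each gene per length in CPM per kb of exon, on a log axis, with 1 point for each of the 18 libraries and a line at the median. The 10 genes span from a median of 102 for SOM to 0.507 for PIF5, while the points of 1 gene lie close together.

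The differences between genotypes are read against 2 tests. Each mutant was compared with Col-0 and called at an edgeR adjusted p under 0.01, and a joint F test asked whether a gene differed between any of the 9 genotypes. Over the 80 comparisons of 10 genes and 8 mutants, 2 were called higher and 0 lower, where 0.904% of all 152800 comparisons of tested genes were called higher and 0.956% lower. The calls were PIF1 in vnd2 and HYH in the libraries labelled obp1. At an unadjusted p under 0.05 edgeR gave 10 higher and 5 lower, and DESeq2 called 2 higher and 0 lower. The matching shares over all tested genes were not computed. These counts therefore do not show an excess or a lean in direction among the 10 genes. The F test called 4 of the 10 genes (PIF1, HYH, HFR1 and SOM), against 11.9% of all 19100 tested genes. Both libraries of a mutant lay outside the range of both Col-0 libraries in 35 of the 80 comparisons, against 48.0% over all genes.

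**Figure D2:**
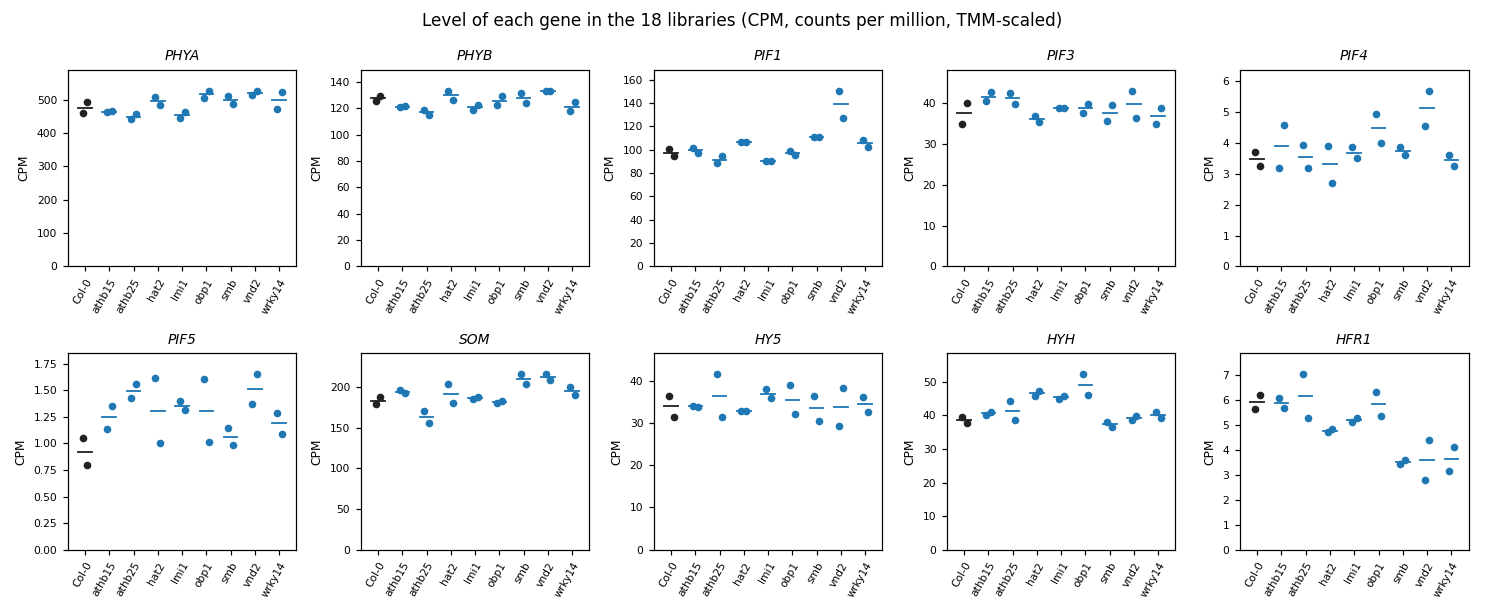
CPM of each gene in the 18 libraries, 2 points per genotype with a line at their mean, Col-0 in black and mutants in blue; each vertical axis starts at 0. PIF1 stands highest in vnd2, SOM lowest in athb25, HYH highest in the libraries labelled obp1, and HFR1 lowest in smb, vnd2 and the libraries labelled wrky14.

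PHYA (AT1G09570; TAIR10 chromosome 1, 3095160 to 3100819, minus strand) encodes the light-labile phytochrome that answers very weak and far-red light. Its level was 441 CPM in the lowest library, 486 at the median and 526 in the highest, and 459.7 and 493 in Col-0. The highest genotype mean, 519 in vnd2, was 1.16 times the lowest, 449 in athb25, and no neighbours in the order of the 9 genotypes were separated by their libraries. The F test gave an edgeR adjusted p of 0.0865, and the log2 fold changes against Col-0 lay between -0.09 and 0.12.

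PHYB (AT2G18790; chromosome 2, 8139756 to 8144461, plus strand), the light-stable phytochrome that mediates red and far-red reversible germination, was steadier still. It ran from 115 to 133 CPM with a median of 124, and its replicates had a pooled coefficient of variation (CV) of 2.87%. In Col-0 it stood at 126 and 129 CPM, in vnd2 at 133 and 133, and in athb25 at 119 and 115. Its log2 fold change of -0.12 ± 0.06 (SE) in athb25 was its largest, with an adjusted p of 0.228, and the F test adjusted p was 0.193. The 300 bases before its start are shown because they hold 2 matches of the G-box CACGTG (in capitals, 146 to 141 and 111 to 106 bases before the start), the element that PIF and HY5 proteins bind best; the letters were searched on both strands, and 8.39% of 19028 such windows of tested genes held at least 1.
PHYB: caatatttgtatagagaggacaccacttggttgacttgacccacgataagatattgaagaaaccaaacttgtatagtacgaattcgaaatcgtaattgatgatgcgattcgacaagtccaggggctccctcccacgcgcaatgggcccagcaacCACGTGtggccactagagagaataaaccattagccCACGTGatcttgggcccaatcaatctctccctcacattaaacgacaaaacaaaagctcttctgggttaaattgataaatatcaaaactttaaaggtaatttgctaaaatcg

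The 4 PIF genes code for bHLH proteins with a phytochrome-binding motif. PIF1 (AT2G20180; chromosome 2, 8704024 to 8707009, minus strand) was the one that varied most firmly between genotypes. It stood at 151 and 127 CPM in the vnd2 libraries and at 101 and 94.7 CPM in the Col-0 libraries. Both vnd2 libraries lay above the other 16, the nearest of which was a smb library at 111 CPM. The log2 fold change in vnd2 was 0.51 ± 0.07 (SE), a rise of 1.42-fold, with an edgeR adjusted p of 0.000100, where 1.97% of all tested genes were called higher in vnd2. It was called in each alternative fit, including those without vnd2 replicate 1 (0.39) and without vnd2 replicate 2 (0.63). The next highest genotypes were smb at 111 and 111 CPM (log2 fold change 0.19, adjusted p = 0.200) and hat2 at 107 and 107. The lowest were lmi1 at 90.8 and 90.2 CPM and athb25 at 88.5 and 94.8. The F test gave an adjusted p of 6.64e-05.

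The seed reserve genes also differed from Col-0 in vnd2. The 12S globulin, 2S albumin and oleosin transcripts that mature seed stores were called higher for 10 of 10 genes in vnd2. In smb 6 of 10 were. Of all 19100 tested genes, 376 were called higher in vnd2 and 118 in smb. The reserve genes summed to 7395 to 12466 CPM in vnd2, 4907 to 5378 in smb and 1860.1 to 2269 in Col-0. The vnd2 library with more PIF1 was also the one with the higher sum. In hat2, 8 of the 10 were called lower, where 51 of the 19100 tested genes were. The sum there was 903 to 999 CPM, and PIF1 was at 107 CPM in both libraries. The 4 endosperm genes summed to 8635 and 8728 CPM in vnd2 and to 6460.0 and 7757 in Col-0. EPR1, with 86662 to 310502 counts per library, made up most of these sums, and EXPA2 came next with 21608 to 46473. Over all 8 mutants edgeR called 0 of the 32 endosperm comparisons (7 at an unadjusted p under 0.05) and DESeq2 called 1, lower. The F test over the 9 genotypes called 1 of the 4 endosperm genes, EXPA2 (adjusted p = 0.000918). The part of the reserve and endosperm genes in the PIF1 result was not tested.

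The window of 300 bases before the PIF1 start is shown because PIF1 is the clearest difference; none of the letters searched (the G-box CACGTG, the PBE-box CACATG, the C-box GACGTC and the ACGT core that the G-box and C-box contain) occurred in it.
PIF1: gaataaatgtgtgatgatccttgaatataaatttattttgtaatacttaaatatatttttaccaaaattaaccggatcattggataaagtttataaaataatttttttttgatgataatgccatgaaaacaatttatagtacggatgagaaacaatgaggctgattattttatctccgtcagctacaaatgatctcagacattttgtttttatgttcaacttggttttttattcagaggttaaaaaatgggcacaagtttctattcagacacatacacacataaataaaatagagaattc

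PIF3 (AT1G09530; chromosome 1, 3075768 to 3079654, plus strand), the first PIF found and a repressor of light responses in dark-grown seedlings, ran from 34.8 to 43.0 CPM with a median of 38.8. Its replicates differed by more (CV 6.68%) than the genotype means did (4.84%), though a mean of 2 libraries by itself varies less than a single library. No neighbouring genotypes in the order of means were separated, and the F test adjusted p was 0.436.

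PIF4 (AT2G43010; chromosome 2, 17886101 to 17889087, plus strand) and PIF5 (AT3G59060; chromosome 3, 21827905 to 21830837, minus strand), which drive elongation in warmth and shade in seedlings, had the lowest levels per length of the 10 genes. PIF4 had 62 to 142 counts per library and 2.71, 3.79 and 5.69 CPM in the lowest, median and highest library. It was at 5.69 and 4.55 CPM in vnd2 and at 3.73 and 3.26 in Col-0, without overlap (log2 fold change 0.55 ± 0.20 SE, adjusted p = 0.0930). PIF5 had 21 to 51 counts per library and 0.796, 1.30 and 1.65 CPM. It was at 1.05 and 0.796 CPM in Col-0, the lowest genotype mean, so all 8 log2 fold changes were positive (0.20 to 0.72); the 8 comparisons share those 2 libraries, and none was called (smallest adjusted p = 0.146). Its replicates were up to 1.61-fold apart (in hat2), and the SE of its log2 fold changes reached 0.32.

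SOM (AT1G03790; chromosome 1, 954290 to 956144, plus strand, a single exon) stayed abundant at 24 h SL in every genotype, with 155 CPM in the lowest library, 189 at the median and 216 in the highest. It stood at 187 and 179 CPM in Col-0. The vnd2 libraries, at 209 and 216, and the smb libraries, at 204 and 216, lay above both Col-0 libraries, and the athb25 libraries, at 171 and 155, lay below all other 16. No comparison with Col-0 was called: the log2 fold changes were 0.21 ± 0.07 (SE) in vnd2 (adjusted p = 0.0546), 0.19 ± 0.07 in smb (0.147) and -0.17 ± 0.07 in athb25 (0.147). Against the mean of the other 7 mutants, SOM was called lower in athb25 (-0.26, adjusted p = 0.00382). The F test passed with an adjusted p of 0.00816, and lost the call in 13 of the 18 fits that each left out 1 library (all but those of hat2, lmi1 replicate 2, smb replicate 2 and wrky14 replicate 2), where the adjusted p rose as far as 0.0466 (without athb25 replicate 2). The sums of the reserve genes in vnd2 and smb, given above with PIF1, were also higher than in Col-0. In athb25 that sum was 1780 to 2966 CPM, which overlapped Col-0.

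The window before the SOM start is shown because it carries the letters CACATGTG (in capitals), in which the PBE-box CACATG, another element bound by PIF proteins, is read once on each strand, 53 to 48 and 51 to 46 bases before the start. Of the 19028 windows, 13.0% held at least 1 PBE-box.
SOM: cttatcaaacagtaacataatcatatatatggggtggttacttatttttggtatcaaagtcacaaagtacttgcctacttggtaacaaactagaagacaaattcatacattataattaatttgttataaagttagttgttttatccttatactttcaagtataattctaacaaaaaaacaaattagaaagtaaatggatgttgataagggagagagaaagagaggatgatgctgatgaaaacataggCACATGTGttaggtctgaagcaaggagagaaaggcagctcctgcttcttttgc

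HY5 (AT5G11260; chromosome 5, 3593335 to 3595073, minus strand), the bZIP factor that binds promoters of light-induced genes, differed less between genotypes than between replicates. It ran from 29.3 to 41.6 CPM with a median of 33.9, and the athb25 pair alone stood at 31.4 and 41.6. The CV was 11.9% within genotypes and 4.08% between the 9 genotype means, which average 2 libraries each. The F test adjusted p was 0.913 and the log2 fold changes lay between -0.04 and 0.13. For lmi1, the genotype with the highest mean, the 95% confidence interval of the log2 fold change was -0.15 to 0.40.

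HYH (AT3G17609; chromosome 3, 6023844 to 6024710, plus strand), the partner and homologue of HY5, behaved differently. Its level was 52.3 and 46.1 CPM in the libraries labelled obp1 and 39.4 and 37.9 CPM in Col-0. The groups did not overlap, and the log2 fold change was 0.35 ± 0.07 (SE), a rise of 1.27-fold with an edgeR adjusted p of 0.00560, where 2.51% of all tested genes were called higher in these libraries. The call was lost when either Col-0 library or obp1 replicate 1 was left out, with a log2 fold change from 0.27 to 0.46 and an adjusted p of up to 0.0915 over all such fits. The next genotypes were hat2 at 45.8 and 47.3 CPM (0.27 ± 0.07 SE, adjusted p = 0.0621) and lmi1 at 45.0 and 45.7 CPM (0.23 ± 0.07 SE, 0.0807). Both lay above Col-0 without overlap and were not called. HYH was lowest in smb, at 36.6 and 38.2 CPM. The 4 endosperm genes summed to 12637 CPM in obp1 replicate 1, the library with more HYH, and to 7410 in obp1 replicate 2, against 6460.0 and 7757 in Col-0, with 0 of the 4 called. In lmi1 they summed to 5552 and 6109 CPM, below Col-0, and in hat2 to 8713 and 6478. The reserve genes summed to 2061 to 2396 CPM in the libraries labelled obp1, which overlapped Col-0. Their part in the HYH result was not tested. The F test adjusted p was 0.00361. Over the 9 genotype means HYH and HY5 had a Pearson r of 0.39, a description only.

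HFR1 (AT1G02340; chromosome 1, 465616 to 467880, minus strand) had the widest span of genotype means in proportion, 1.76-fold, on 63 to 192 counts per library. Col-0 stood at 5.64 and 6.18 CPM. The smb libraries were at 3.44 and 3.57 CPM, the vnd2 libraries at 2.81 and 4.39, and those labelled wrky14 at 3.15 and 4.11. All 6 of these libraries lay below the other 12, the lowest of which was a hat2 library at 4.70 CPM. The log2 fold changes were -0.75 ± 0.19 (SE; edgeR adjusted p = 0.0279) for smb, -0.74 ± 0.19 (0.0178) for vnd2 and -0.72 ± 0.18 (0.0370) for the libraries labelled wrky14, so that none passed 0.01. In vnd2 the value was -1.07 without vnd2 replicate 2 (called, adjusted p = 0.00359) and -0.43 without vnd2 replicate 1. The joint F test did pass, with an adjusted p of 0.00374, and 0.0101 without smb replicate 2.

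The same 3 genotypes had the highest summed levels of the reserve genes. The sums were 4907 to 5378 CPM in smb, 7395 to 12466 in vnd2 and 3185 to 3916 in the libraries labelled wrky14. In the last, 1 of the 10 was called higher, where 47 of the 19100 tested genes were. In the other 6 genotypes the sums lay at 903 to 2966 CPM. The part of seed reserve RNA in the HFR1 result was not tested.

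The windows before HYH and HFR1 are shown because these genes were, with PIF1 and SOM, the ones that differed between genotypes. Capitals mark the ACGT core, which occurred at 272 to 269 and 55 to 52 bases before the start of HYH and at 284 to 281 bases before that of HFR1. The core was in 48.6% of the 19028 windows and the full C-box GACGTC in 2.78%.
HYH: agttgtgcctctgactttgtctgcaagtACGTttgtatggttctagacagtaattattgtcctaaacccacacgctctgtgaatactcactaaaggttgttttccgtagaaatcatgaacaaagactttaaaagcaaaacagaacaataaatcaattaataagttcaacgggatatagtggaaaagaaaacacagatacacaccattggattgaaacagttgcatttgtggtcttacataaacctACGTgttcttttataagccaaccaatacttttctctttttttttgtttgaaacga
HFR1: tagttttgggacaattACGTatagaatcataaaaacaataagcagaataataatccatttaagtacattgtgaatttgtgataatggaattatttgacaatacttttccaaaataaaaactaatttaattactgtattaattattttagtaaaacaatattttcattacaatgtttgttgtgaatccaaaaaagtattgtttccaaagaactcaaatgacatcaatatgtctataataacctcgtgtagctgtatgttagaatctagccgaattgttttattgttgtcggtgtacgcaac

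The F test itself weighs the spread between genotypes against that between replicates. As a description of the 4 genes that passed it, the CV of genotype means was 2.39 times the replicate CV for PIF1, 1.86 for HYH, 1.86 for SOM and 1.67 for HFR1. For HFR1 both spreads were large, at 22.4% between genotypes and 13.4% between replicates. For HY5 the ratio was 0.342. A mean of 2 libraries varies less than a single library, so without a genotype effect the replicate CV is expected to be the larger. In the order of the 9 genotypes, PIF1 and SOM both had vnd2 first and smb next, and HFR1 had the same pair last. PHYA, PHYB, PIF4 and PIF5 also had vnd2 first, so that place was not particular to PIF1 and SOM. Over the 9 genotype means PIF1 and SOM had a Pearson r of 0.80, and SOM and HFR1 of -0.80. For PIF1 and HFR1 it was -0.77, and for PHYA and PHYB 0.77. These were picked as the largest r in size over all pairs of the genes followed. Close behind came PHYB and PIF1 (0.77), PHYA and PIF1 (0.73) and PHYB and HY5 (-0.72). The r of PIF1 with PHYB was thus near that with SOM. The 9 genotype means share their libraries between genes, and these r are given as a description. By the same measure the genes outside the lists most like PIF1 were AT1G14650 (r = 0.99) and CDL1 (AT5G02800; r = 0.98). Those most like HYH were AT4G28740 (r = 0.98) and CH1 (AT1G44446, r = 0.97), which codes for the enzyme of chlorophyll b synthesis. They are the highest r of a search over all tested genes outside the lists, on only 9 means each. Such a search gives high r by selection alone, and shared regulation was not tested.

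**Figure D3:**
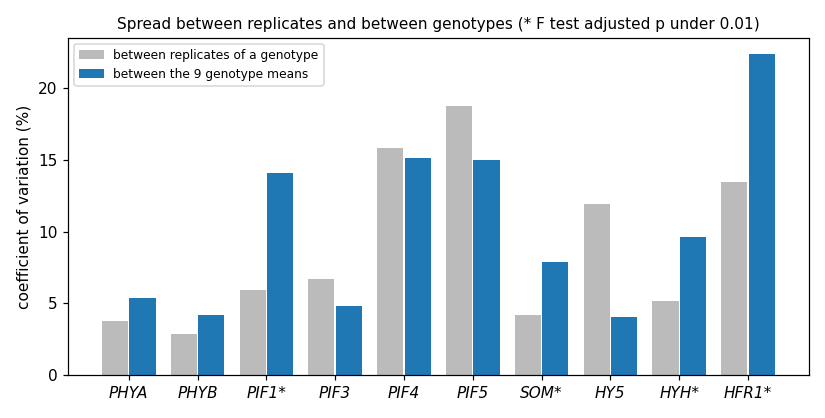
Coefficient of variation of CPM in percent for each gene, between the 2 replicates of a genotype (grey, pooled over 9 genotypes) and between the 9 genotype means (blue); an asterisk marks an F test adjusted p under 0.01. In proportion, the blue bar exceeds the grey one most for PIF1 (14.1% against 5.90%) and falls short of it most for HY5 (4.08% against 11.9%), while HFR1 has the tallest blue bar (22.4% against 13.4%).

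**Figure D4:**
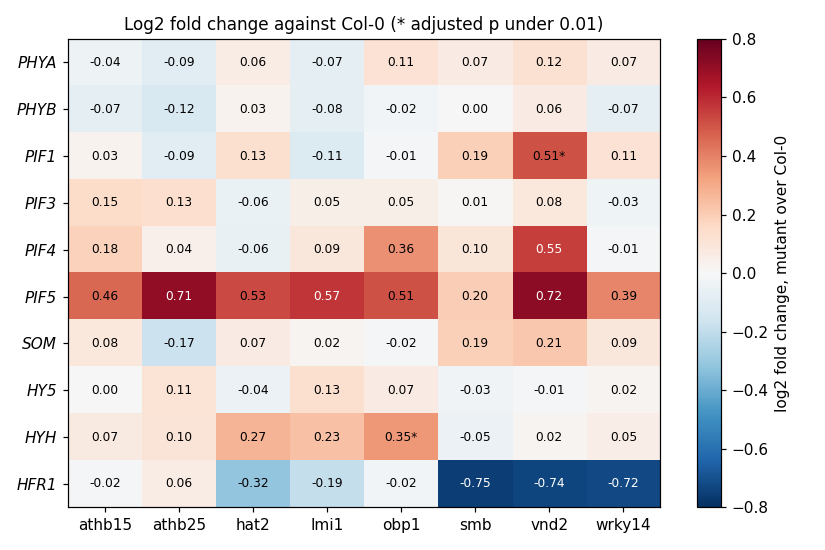
Log2 fold change of each gene in each mutant over Col-0, printed in each cell and coloured red for higher and blue for lower, with an asterisk at an edgeR adjusted p under 0.01. The 2 asterisks are PIF1 in vnd2 (0.51) and HYH in the libraries labelled obp1 (0.35), and the strongest blue is HFR1 in smb, vnd2 and the libraries labelled wrky14 (-0.75, -0.74 and -0.72).

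Around these genes, 65 further genes of the pathway were taken in 8 lists by known role, and 62 had enough counts to be tested. Of their 496 comparisons, 11 were called higher and 7 lower (2.22% and 1.41%, against 0.904% and 0.956% over all genes). The libraries labelled obp1 held 8 of these 18 calls, 12.9% of the 62 genes where 3.92% of all tested genes were called. In athb15 and the libraries labelled wrky14 there were 0, where 0.147% and 1.16% of all genes were called. The counts were 3 in athb25 (1.62% of all genes called), 1 in hat2 (0.660%), 2 in lmi1 (1.10%), 1 in smb (2.15%) and 3 in vnd2 (4.13%). The share in any list against that of all genes was not tested. Counts at an unadjusted p under 0.05 and by DESeq2 are given below for each list. Their shares over all tested genes were not computed, so they do not show that a list moved more than other genes. Of the 18 calls, 4 were never lost under the alternatives (BBX25 and ELIP1 in the libraries labelled obp1, ELIP1 in lmi1 and MFT in vnd2), and the other 14 were lost in 2 to 16 of them. A threshold of 0.05 gave 21 and 26. Leaving out Col-0 replicate 1 gave 4 and 1, and leaving out Col-0 replicate 2 gave 4 and 3.

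Among the other photoreceptors, 2 of 64 comparisons were called higher and 0 lower by edgeR (10 in either direction at an unadjusted p under 0.05, and 3 higher and 0 lower by DESeq2), with a median log2 fold change of 0.03. Both were blue light receptors in the libraries labelled obp1. CRY1, a cryptochrome, was at 59.6 and 62.2 CPM against 47.5 and 50.7 in Col-0 (log2 fold change 0.31, adjusted p = 0.00510). PHOT2, a phototropin, was at 47.5 and 53.3 CPM against 38.6 and 40.5 (0.35). Both calls were lost without either Col-0 library or obp1 replicate 2, and that of CRY1 also without obp1 replicate 1, with adjusted p of up to 0.0616. PHYC, PHYD and PHYE had no call in any mutant. The 6 genes of chromophore synthesis and phytochrome nuclear import had 0 edgeR calls in 48 comparisons (1 at an unadjusted p under 0.05), and the 8 genes of the COP1, SPA and DET1 repressors 0 in 64 (10 at an unadjusted p under 0.05). DESeq2 also gave 0 for both lists.

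Of the 4 other PIF and PIL genes, PIF7 and PIL1 were too low to test. PIF6, a bHLH gene linked to seed dormancy, was called higher in vnd2 by edgeR, and DESeq2 made 0 calls in this list (4 edgeR comparisons passed an unadjusted p under 0.05). It had 24 and 11 counts there and 3 and 2 in Col-0, a ratio per total count of 6.44 with a 95% exact interval of 2.51 to 21.1 for counting error only. It was at 10 and 11 counts in smb and at 11 and 10 in the libraries labelled wrky14, and at 7 or fewer in all others. PIF6 shares 231 bases with AT3G62080 on the opposite strand, which had 311 counts on average. PIF6 also shares 1525 of its 1805 exon bases with AT3G09745, again on the opposite strand, which had 2.3 counts on average. The reads of PIF6 are therefore uncertain unless the counting used the strand. The call in vnd2 was lost in 4 of the alternative fits (a model of 4 libraries, and without either Col-0 library or vnd2 replicate 1), with an adjusted p of up to 0.0838.

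The 13 seed genes downstream of PIF1 and SOM, which act on abscisic acid, gibberellin and dormancy, gave 3 edgeR calls in 104 comparisons, all higher (4 higher and 0 lower by DESeq2, and 19 in either direction at an unadjusted p under 0.05), with a median log2 fold change of -0.01. MFT, a seed gene of abscisic acid responses, was at 6.28 and 4.78 CPM in vnd2 and at 2.95 and 2.21 in smb, against 0.907 and 0.644 in Col-0. The log2 fold changes were 2.86 (adjusted p = 3.44e-06) and 1.72 (0.00400). Both groups lay above Col-0 and above all other genotypes, the next being the libraries labelled wrky14 at 1.47 and 1.65 CPM. MFT shares 606 bases with AT1G18090 on the opposite strand, at 381 counts on average. ABA1, the zeaxanthin epoxidase of abscisic acid synthesis, was at 95.3 and 95.0 CPM in the libraries labelled obp1 against 77.3 and 72.1 in Col-0 (0.35, adjusted p = 0.00381). Leaving out any one of the Col-0 or obp1 libraries lost the ABA1 call, and leaving out any one of the Col-0 or smb libraries lost that of MFT in smb (adjusted p of up to 0.0532 and 0.0960).

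**Figure D5:**
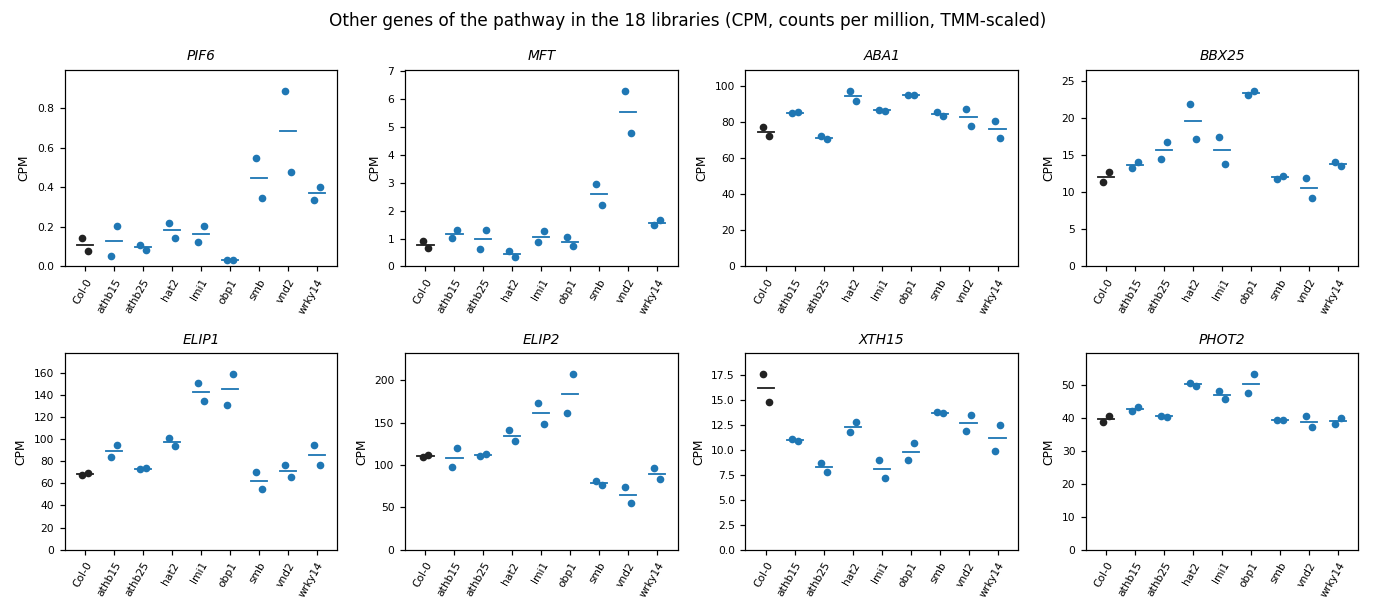
CPM of 8 other pathway genes in the 18 libraries, 2 points per genotype with a line at their mean, Col-0 in black and mutants in blue; each vertical axis starts at 0. PIF6 and MFT are highest in vnd2, smb and the libraries labelled wrky14, BBX25, ELIP1 and ELIP2 are highest in the libraries labelled obp1, and XTH15 is highest in Col-0.

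Of the 8 calls in the lists on the HY5 side, 4 were in the libraries labelled obp1, where HYH was also called. In these libraries 3.92% of all tested genes were called, and a link of the 4 calls to HYH was not tested. The 7 B-box partners of HY5 had 2 calls higher and 1 lower in 56 comparisons by edgeR, and 2 higher and 0 lower by DESeq2 (16 in either direction at an unadjusted p under 0.05). BBX25, a B-box protein that binds HY5 and COP1, was at 23.1 and 23.7 CPM in the libraries labelled obp1 and at 21.9 and 17.2 in hat2, against 11.3 and 12.7 in Col-0 (log2 fold changes 0.96 and 0.70). The call in hat2 was lost in 9 of 26 alternative fits (adjusted p of up to 0.141), among them those without either Col-0 library, either athb15 library, either obp1 library or hat2 replicate 1, and the call in the libraries labelled obp1 in 0. BBX25 shares 48 bases with AT2G31390 on the opposite strand, at 1842 counts on average, so its reads are uncertain in the same way. BBX20, a cofactor of HY5, was at 5.68 and 5.79 CPM in the libraries labelled obp1 against 7.93 and 9.09, a change of -0.57. This call was lost in 16 of 26 alternative fits, 13 of which left out 1 library (all but hat2 replicate 2, either smb and either vnd2 library), with an adjusted p of up to 0.122. The 10 genes whose promoters HY5 is known to bind had 3 calls higher and 2 lower in 80 comparisons by edgeR, and 4 and 3 by DESeq2 (30 in either direction at an unadjusted p under 0.05), with a median log2 fold change of -0.17. ELIP1, an early light-induced chlorophyll-binding protein, was at 131 and 159 CPM in the libraries labelled obp1 and at 151 and 135 in lmi1, against 67.6 and 69.5 in Col-0 (1.08 and 1.06). Its homologue ELIP2 was at 161 and 208 CPM in the libraries labelled obp1 and at 74.4 and 55.5 in vnd2, against 109 and 112 in Col-0 (0.74 and -0.77), so it was called in opposite directions in these lines. Those ELIP2 calls were lost in 3 alternative fits (without either Col-0 library or obp1 replicate 2) and in 2 (without Col-0 replicate 2 or vnd2 replicate 2), and the ELIP1 calls in 0. FLS1, flavonol synthase, was called lower in athb25 (17.8 and 17.8 CPM against 25.8 and 26.0, a change of -0.54), a call lost in 10 of 26 alternative fits with an adjusted p of up to 0.0924. Of these fits 8 left out 1 library, of athb15, athb25, Col-0 or the libraries labelled obp1.

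The 8 tested shade-induced PIF targets, genes that PIF4 and PIF5 activate in seedlings, had 0 calls higher and 4 lower in 64 comparisons by edgeR and by DESeq2 (20 in either direction at an unadjusted p under 0.05), with a median of -0.22. XTH15, a cell wall xyloglucan enzyme, made 3 of the 4. It was at 8.72 and 7.74 CPM in athb25, 8.96 and 7.16 in lmi1 and 8.93 and 10.6 in the libraries labelled obp1, against 17.6 and 14.7 in Col-0. The log2 fold changes were -0.96, -0.99 and -0.72. All 16 mutant libraries were below both Col-0 libraries, which the 8 comparisons share. The 3 calls were lost with the other 7 mutants as reference (adjusted p of up to 0.387) and without Col-0 replicate 1, that in athb25 also without athb25 replicate 2, and that in the libraries labelled obp1 also without obp1 replicate 1. XTH15 shares 382 bases with AT4G14120 on the opposite strand, at 85.8 counts on average. The other call was ST2A, a sulfotransferase, in athb25 at 20.4 and 24.9 CPM against 34.2 and 35.2 (-0.62), lost without either Col-0 library or athb25 replicate 1. PRE1 was too low to test.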

How the data were processed

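RNA-seq was carried out on germinating seed of 9 genotypes. Per the labels, libraries were polyA-selected and stranded. The authors trimmed reads with Trim Galore 0.4.2, mapped them to TAIR10 with HISAT2 2.0.5 and assigned them to Araport11 genes with featureCounts 1.5.1. The deposited table held these read counts, raw and per gene. Whether strand was used in counting is not given in the sources used here, so overlapping genes are uncertain. PIF1 shares 134 bases with AT2G20170, which had 0.3 counts on average, and no other of the 10 genes overlaps an exon of another gene.

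Genes were filtered with filterByExpr (19100 kept), counts were TMM-scaled and a genotype model was fitted to the 18 libraries together in edgeR 4.0.16 under R 4.3.3. Mutants were tested against Col-0 one by one, and all genotypes jointly, by quasi-likelihood tests with Benjamini-Hochberg adjustment over all tested genes and a threshold of 0.01. CPM used TMM-scaled totals. The exact interval of the PIF6 ratio covers counting error only. The confidence interval of the HY5 log2 fold change came from the edgeR fit and includes the spread between replicate libraries. The common biological coefficient of variation was 5.87%. The fits were tested on simulated data drawn from the fitted model, with changes set in vnd2 only. Such data cannot show whether the replicates were separate pools. The 10 genes and the lists were chosen with earlier results of these data known. The pathway genes named were those called in at least 1 mutant, at most 4 per list by smallest adjusted p; PIF7, PIL1, PRE1, PHYC, PHYD and PHYE were named besides as untested or uncalled. For the genes with the most calls, the 2 likest genes by Pearson r over genotype means were named.

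Promoter windows, the 300 bases before each start, were read from the RefSeq TAIR10.1 genome. Its annotation gave the same chromosome, start and end as the table for 99.5% of 37051 matched genes and for all 10 genes here.

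Alternatives were DESeq2 1.42.0 (Wald test, and its size factors in edgeR), no count filter, a mean of at least 50 counts, a replicate block, models of 4 libraries, the other 7 mutants as reference, a threshold of 0.05, and each library left out in turn.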

Additional observations from a re-analysis of the deposited data

How the results depend on the processing

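PIF1 in vnd2 was called under each alternative, with log2 fold changes from 0.39 to 0.63 and adjusted p of at most 0.00657 in edgeR or DESeq2. The 2 calls higher among the 10 genes were 2 under each alternative other than leaving out a library, and 1 to 2 with a library left out (1 when either Col-0 library or obp1 replicate 1 was left out, where HYH was lost). The 0 calls lower became 3 at an adjusted p under 0.05 and 3 with no count filter (HFR1 in smb, vnd2 and the libraries labelled wrky14 in both), 1 with the other 7 mutants as reference (SOM in athb25), and 0 to 2 with a library left out. The F test called 2 to 4 genes with a library left out, 2 without obp1 replicate 1, and SOM also missed the threshold under a mean of at least 50 counts (adjusted p = 0.0107). For the pathway lists, the 11 calls higher became 21 at 0.05, 25 with no filter, 17 with the other 7 mutants as reference, and 4 to 14 with a library left out. The 7 calls lower became 26 at 0.05, 13 in models of 4 libraries, 30 with no filter, and 1 to 12 with a library left out. The pathway calls moved by over 1.5 times without either Col-0 library (4 higher for both, 1 and 3 lower), without obp1 replicate 2 (7 higher), without obp1 replicate 1 or either athb25 library (4 lower each) and without vnd2 replicate 1 (12 lower). The cause of these changes was not tested, except that a looser threshold admits more genes. Values for single genes were the F tests of the 10 genes, which have no direction, and fold changes picked in the main fit. The picked fold changes were those of the 10 genes at an unadjusted p under 0.05 and the called ones of pathway, reserve and targeted genes. Of these values over the alternatives, 1758 held, 128 lost a call, 10 gained one and 0 fold changes changed sign. The alternatives share most libraries with the main fit, so few sign changes could arise among fold changes picked this way.

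The replicate numbers did not pair the samples: deviations of same-numbered libraries had r from -0.15 to 0.17 over 36 pairs of genotypes, and 4 were over 0.1. With the replicate block, the 10 genes gave 2 calls higher, 0 lower and 4 by the F test, and the pathway lists 12 higher and 5 lower.

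Counts per library were 21 to 51 for PIF5, 62 to 142 for PIF4 and 63 to 192 for HFR1, and at least 653 for each of the other 7 genes. With 2 libraries per genotype, depth and replicate spread were not separated as limits, and HY5, with 660 to 1219 counts, had a replicate CV of 11.9%.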
